A study of Drosophila melanogaster with 9 samples.

Results

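The genes described here are known from blood cells (hemocytes) and were examined in S2, a macrophage-like line that came from *Drosophila* embryos. They were listed by name, but with earlier results of these data known. The transcription factors are srp (CG3992), ush (CG2762), gcm (CG12245) and lz (CG1689). The surface receptors are crq (CG4280), drpr (CG2086), eater (CG6124) and NimC1 (CG8942). The others are the clotting protein Hml (CG7002), and PPO1 (CG5779), an enzyme of melanization. Together they are 10 of the 15168 genes in the gene table, and they have 15 of the 22353 transcripts in the transcript table. In the BDGP6 annotation, which is later than the build of the files, srp and eater lie on chromosome arm 3R, ush, gcm, crq and NimC1 on 2L, Hml and drpr on 3L, PPO1 on 2R and lz on X.

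*Drosophila* hemocytes arise under the GATA factor srp and take one of several fates. Plasmatocytes are phagocytes that clear bacteria and dying cells through scavenger receptors and receptors of the Nimrod family. Crystal cells carry the prophenoloxidases needed for melanization, and lamellocytes encapsulate parasites.

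Total RNA was sequenced from S2 cells 3 days after transfection with 1 µg of double-stranded RNA (dsRNA), to ask how loss of a heterochromatin protein alters the transcriptome. The dsRNA was directed against GFP (control), against HP1a, a reader of methylated histone H3, or against Su(var)3-9, a methyltransferase that writes this mark. Each group had 3 replicates of the same line. By the labels and the methods, all groups, the control included, share the transfection and the presence of dsRNA. The control libraries are titled only S2, however, so their transfection rests on the GFP label and the methods. The RNAi was done in triplicate, but the labels do not say that the replicates were independent cultures, so p-values measure only the spread between these samples.

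Values are TPM (transcript abundances) that are scaled by transcript length and to one total per library, so levels of different genes can be compared. TPM keep no record of sequencing depth, so depth is unknown here and counting error cannot be given. The targeted genes were checked first. The HP1a gene (CG8409) read 91.5, 53.8 and 79.7 TPM in the 3 control libraries, whereas those labelled HP1a RNAi read 393.3, 285.2 and 316.7 TPM. Su(var)3-9 (CG6476, whose locus is shared with eIF2gamma) read 36.9, 23.8 and 36.4 TPM in control cells, whereas libraries labelled Su(var)3-9 RNAi read 380.4, 261.8 and 463.0 TPM. Both targets were therefore higher, not lower, in the libraries that carry their name, and groups are called by their labels below. The methods state that the knockdowns were checked on the protein by immunoblot, a measurement that was not used here. Reads from the transfected dsRNA and from the gene itself cannot be told apart in these values.

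Small noncoding genes took 82.7% to 89.0% of TPM, leaving protein-coding genes 9.54% to 15.1%. Su(var)3-9 RNAi replicate 3 and control replicates 1 and 3 had the highest protein-coding shares, 14.1% to 15.1%, and the other 6 libraries had 9.54% to 11.0%. Because the total is fixed, a coding gene's TPM moves with this share. Each comparison is therefore given on the deposited TPM and again after division by size factors, which ranged from 0.787 to 1.28 and bring the typical gene to the same level in all libraries.

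The 10 genes fell into those with clear levels and those at or near 0. By mean TPM over the 9 libraries, the order was crq (11.8), ush (7.12), srp (6.62), eater (3.48), drpr (3.33), Hml (0.811), NimC1 (0.0411), PPO1 (0.00889), gcm (0.00667) and lz (0.00333). The scavenger receptor crq was above ush and srp in all 9 libraries, and it lay above 87.8% to 90.9% of protein-coding genes in a library. Neighbours in the order were less distinct, since srp was above ush in 4 of the 9 libraries and drpr above eater in 4 of 9. The ranks of srp, above 72.5% to 85.1% of protein-coding genes, and ush, above 78.8% to 86.6%, overlapped. The corresponding range was 64.8% to 73.3% for drpr, 64.0% to 73.5% for eater and 49.2% to 55.6% for Hml.

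**Figure D1:**
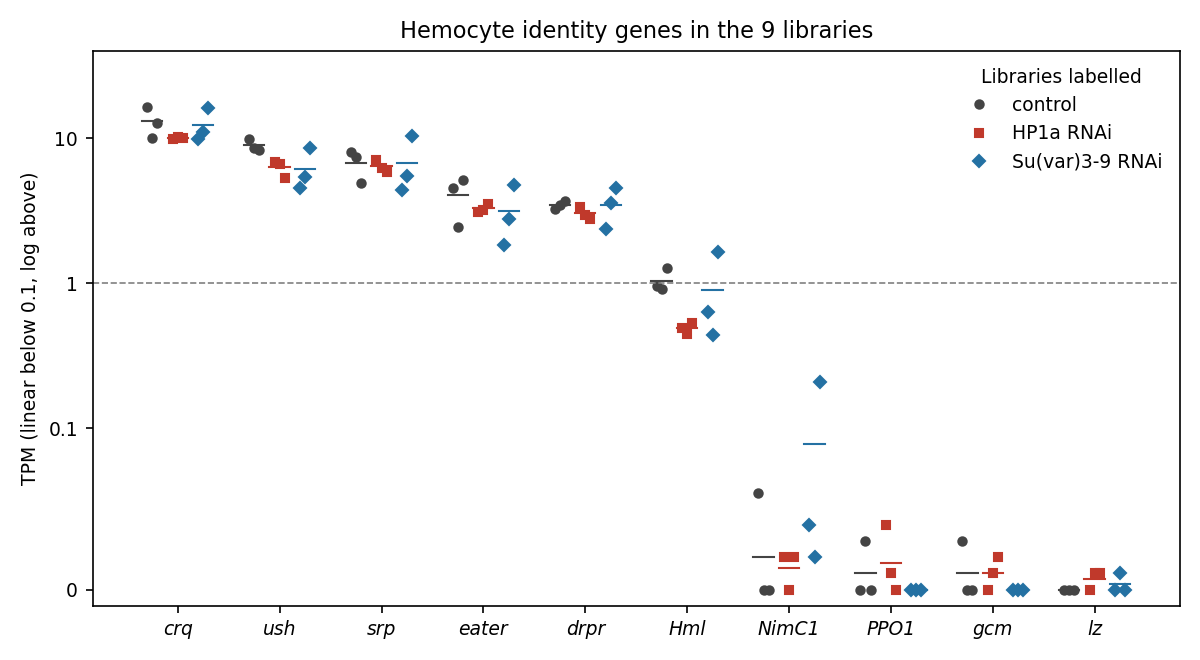
TPM of each hemocyte identity gene (vertical axis, linear below 0.1 and logarithmic above) in each of the 9 libraries, grouped by label. Points are libraries and short bars are group means over 3 libraries. The dashed line marks 1 TPM, the mean that a gene needed to enter the tests; 5 of the 10 genes lie above it, with crq highest at a mean of 11.8, and NimC1, PPO1, gcm and lz lie at or near 0.

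Among the transcription factors, srp is the GATA factor that specifies the hemocyte lineage. It stood at 8.02, 7.40 and 4.88 TPM in the control, 7.08, 6.19 and 5.86 in the HP1a RNAi libraries, and 4.38, 5.50 and 10.3 in the Su(var)3-9 RNAi libraries. The groups overlapped, and the highest and lowest values both came from the group labelled Su(var)3-9 RNAi. Its cofactor ush, a FOG-family zinc finger protein that binds GATA factors and modulates their activity, had control values of 9.93, 8.53 and 8.26 TPM and values of 6.88, 6.63 and 5.31 in the HP1a RNAi libraries. In the third group ush was at 4.51, 5.43 and 8.56 TPM. All 3 HP1a RNAi libraries were below all 3 control libraries, whereas 1 Su(var)3-9 RNAi library reached the control range.

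The fate regulators gcm, which directs plasmatocyte and glial fates in the embryo, and lz, the RUNX factor of crystal cells, were listed at 0 in 6 libraries each. Their highest values were 0.03 TPM for gcm and 0.01 TPM for lz. A listed 0 need not mean that a transcript was absent. ND-B8, a subunit of respiratory complex I, was also listed at 0 in all 9 libraries. Its listed length is only 374 bases, against 2219 for gcm and 3287.5 for lz, so it does not show how genes of their length are detected.

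The phagocytic receptors differed widely in level. The CD36-family receptor crq, which takes part in the uptake of apoptotic cells, stood at 16.5, 10.1 and 12.7 TPM in the control, 9.85, 10.2 and 9.97 in the HP1a RNAi libraries, and 9.80, 10.9 and 16.2 in the Su(var)3-9 RNAi libraries. The HP1a RNAi libraries were close together (SD 0.194, n = 3) at the low end of the other groups. The engulfment receptor drpr, which recognises dying cells and axonal debris, stood at 3.25, 3.46 and 3.70 TPM, then 3.36, 2.96 and 2.75, then 2.37, 3.57 and 4.51, in the same order of groups. The control range of drpr lay inside that of the Su(var)3-9 RNAi libraries.

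The Nimrod-family receptor eater, which binds bacteria, stood at 4.50, 2.43 and 5.17 TPM in the control, 3.12, 3.21 and 3.49 under the HP1a RNAi label and 1.84, 2.79 and 4.76 under the Su(var)3-9 RNAi label. The groups of eater overlapped throughout. Its relative NimC1, another phagocytic receptor of plasmatocytes, was listed at 0 in 3 libraries and reached at most 0.21 TPM, in Su(var)3-9 RNAi replicate 3. No fold is given for NimC1, gcm, lz or PPO1.

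Hml (hemolectin), a large secreted protein of the clot and a common plasmatocyte marker, was between these classes. It stood at 0.95, 0.91 and 1.27 TPM in the control, 0.49, 0.45 and 0.53 in the HP1a RNAi libraries and 0.63, 0.44 and 1.63 in the Su(var)3-9 RNAi libraries. The control mean was 1.04 TPM ± 0.197 and the HP1a RNAi mean 0.490 TPM ± 0.0400 (SD, n = 3 each). The values of these groups did not overlap. Among genes averaging 1 TPM or more, a set that leaves out Hml, 31.5% had every HP1a RNAi library below every control library. PPO1, a prophenoloxidase made by crystal cells, was listed at 0 in 6 libraries and reached at most 0.04 TPM.

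In the comparison of HP1a RNAi with the control, none of the 5 tested genes passed an adjusted p of 0.05 in limma. Tests were made on log2(TPM + 1), a scale that understates changes of low genes, for genes averaging 1 TPM or more. This left srp, ush, crq, drpr and eater of the 10 members and 6573 genes in all. Among all tested genes 4.34% passed. At an unadjusted p under 0.05, 1 of the 5 members (ush) and 24.0% of all tested genes passed. In bulk RNA, fewer cells expressing a gene and less RNA per cell cannot be told apart.

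ush had the largest change of the 5, a log2 fold change of -0.45 (SE 0.17, 95% interval -0.82 to -0.08, adjusted p = 0.154 by limma). The median over all tested genes was -0.27. Complete separation, with every HP1a RNAi library below every control library, was met by ush as the only tested member and by 31.5% of all tested genes. After size factors the ush values overlapped, and its log2 fold change was -0.16 (95% interval -0.50 to 0.19, adjusted p = 0.696 by limma). The HP1a RNAi libraries had protein-coding shares of 10.1% to 11.0%, against 10.7% to 15.1% in the control.

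On deposited TPM the other 4 genes were nearer to 0 on the log2 scale. There, crq differed by -0.33 (95% interval -0.76 to 0.11), eater by -0.19 (-0.64 to 0.25), drpr by -0.15 (-0.47 to 0.16) and srp by -0.05 (-0.47 to 0.36). After size factors the differences were -0.02 for crq, 0.07 for eater, 0.10 for drpr and 0.23 for srp, so that eater, drpr and srp switched sign. None of the 5 was called by limma after size factors, against 0.882% of all tested genes, and 0 of the 5 and 13.6% of all tested genes had an unadjusted p under 0.05. These intervals include both no change and, for srp after size factors, a log2 difference of up to 0.74.

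Control replicate 2, which had a protein-coding share of 10.7%, decided calls on deposited TPM. Without it, ush (log2 fold change -0.47, adjusted p = 0.0432), crq (-0.49, adjusted p = 0.0337) and eater (-0.45, adjusted p = 0.0272) passed in limma as lower in the HP1a RNAi libraries. In that fit 42.1% of all tested genes passed, so that the 3 of 5 members are to be read against this share. After size factors, 0 members passed without that library.

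Hml was below the level needed for the test and was fitted with a lower minimum mean of 0.5 TPM, a choice made after its values were seen. Its log2(TPM + 1) difference between HP1a RNAi and control was -0.45 (SE 0.13, 95% interval -0.73 to -0.17, adjusted p = 0.0727 by limma). In that fit 4.33% of 7210 genes passed, and Hml did not. With a pseudocount of 0.1 in place of 1 the difference was -0.94 (SE 0.26, adjusted p = 0.0729 by limma), and without control replicate 2 it was -0.50 (adjusted p = 0.0261 by limma), past the threshold, as were 39.1% of the genes tested without that library.

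Unlike ush, Hml kept its separation after size factors. The scaled control values were 0.741, 0.960 and 0.997 TPM and the scaled HP1a RNAi values 0.531, 0.509 and 0.559 TPM, so that every HP1a RNAi library remained lower. Such complete separation on the low side was met after size factors by 10.8% of genes averaging 1 TPM or more, a set that leaves out Hml. The log2 difference was then -0.31 (SE 0.096, 95% interval -0.53 to -0.08, adjusted p = 0.228 by limma).

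The comparison of Su(var)3-9 RNAi with the control gave wider intervals on deposited TPM. For srp, the SD of deposited TPM was 3.15 in the Su(var)3-9 RNAi libraries against 1.66 in the control and 0.631 in the HP1a RNAi libraries (n = 3 each). After size factors the order of the first pair turned, at 1.37 against 2.00 for srp, and for each of the 5 tested members the SD of the Su(var)3-9 RNAi libraries was below that of the control. None of the 5 tested members passed in limma on deposited TPM, against 0.167% of all tested genes. At an unadjusted p under 0.05, 0 of the 5 members and 7.55% of all tested genes passed.

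Again ush was lowest, with a log2 fold change of -0.50 (SE 0.28, 95% interval -1.09 to 0.08, adjusted p = 0.711 by limma), where the median gene stood at -0.23. eater differed by -0.30 (-0.95 to 0.35), crq by -0.09 (-0.71 to 0.54), srp by -0.06 (-0.72 to 0.60) and drpr by -0.02 (-0.56 to 0.51). After size factors ush was at -0.27 (-0.58 to 0.05) and eater at -0.10, while drpr (0.18), crq (0.17) and srp (0.17) switched sign. No member was called by limma after size factors, where 0.0761% of all tested genes passed, and 0 of the 5 and 10.2% of all tested genes had an unadjusted p under 0.05. With the minimum mean of 0.5 TPM, Hml differed by -0.15 (-0.65 to 0.35, adjusted p = 0.827 by limma).

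The 2 RNAi groups did not separate on these genes in deposited TPM. In HP1a RNAi against Su(var)3-9 RNAi, no tested member was called in limma, against 0.0609% of all tested genes on deposited TPM and 0.0609% after size factors. At an unadjusted p under 0.05, 0 members and 1.84% of tested genes passed on deposited TPM. The log2 difference was -0.24 for crq (95% interval -0.71 to 0.22), -0.13 for drpr (-0.60 to 0.34), 0.11 for eater (-0.47 to 0.69), 0.05 for ush (-0.47 to 0.58) and 0.00 for srp (-0.62 to 0.63).

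After size factors, crq was the only tested member whose values in these 2 groups did not overlap. The scaled values were 10.7, 11.6 and 10.5 TPM in the HP1a RNAi libraries and 12.4, 12.4 and 12.9 TPM in the Su(var)3-9 RNAi libraries. The log2 difference of crq was -0.19 (SE 0.067, 95% interval -0.35 to -0.03, adjusted p = 0.647 by limma), and 7.45% of tested genes were separated in this direction. At an unadjusted p under 0.05, 1 of the 5 members (crq) and 7.23% of all tested genes passed after size factors.

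**Figure D2:**
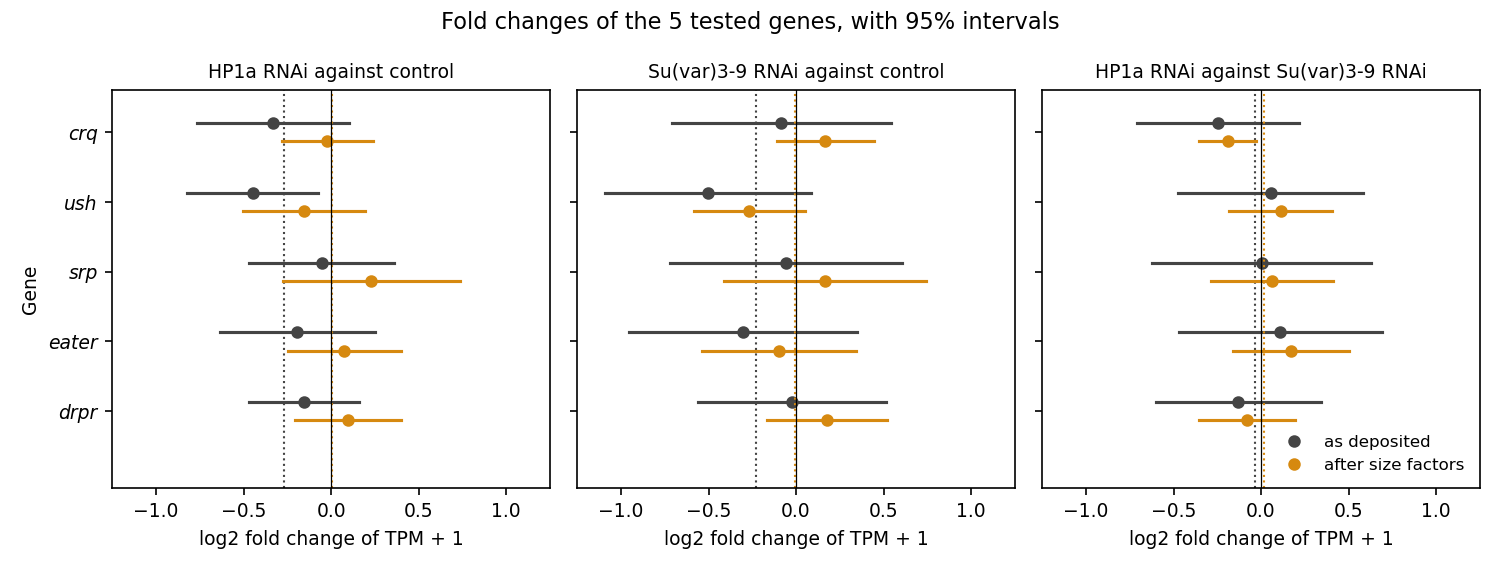
Log2 fold changes of TPM + 1 (horizontal axis) for the 5 tested hemocyte genes in the 3 comparisons, on deposited TPM (dark) and after size factors (orange). Points are limma estimates from 3 libraries a group, lines are 95% intervals, and dotted lines mark the median over all 6573 tested genes. In HP1a RNAi against control, ush lies at -0.45 on deposited TPM and at -0.16 after size factors, and no gene was called in any panel.

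Ratios between members within a library do not depend on the scaling of the library. They were examined after the levels had been seen and are given as a description, without a test. The ratio of srp to its cofactor ush was 0.808, 0.868 and 0.591 in the control, 1.03, 0.934 and 1.10 in the HP1a RNAi libraries, and 0.971, 1.01 and 1.20 in the Su(var)3-9 RNAi libraries. In both RNAi groups every library had a higher srp to ush ratio than every control library, and these comparisons share the control. This was the only one of 10 member pairs separated between HP1a RNAi and control, where 21.2% of all gene pairs were.

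The ratio of ush to crq was 0.603, 0.847 and 0.650 in the control, 0.698, 0.648 and 0.533 in the HP1a RNAi libraries and 0.460, 0.496 and 0.528 in the Su(var)3-9 RNAi libraries. It was thus lowest in the Su(var)3-9 RNAi libraries, below both other groups. The ratio of ush to drpr showed the same order, at 3.06, 2.47 and 2.23 in the control, 2.05, 2.24 and 1.93 under HP1a RNAi, and 1.90, 1.52 and 1.90 under Su(var)3-9 RNAi. Between Su(var)3-9 RNAi and control, 3 of the 10 member pairs were separated, all involving ush, against 17.4% of all gene pairs.

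Between the 2 RNAi groups, 3 of 10 member pairs were separated, against 13.3% of all gene pairs. These were ush to crq, ush to drpr and crq to eater. The crq to eater ratio was 3.16, 3.19 and 2.86 in the HP1a RNAi libraries and 5.33, 3.92 and 3.41 in the Su(var)3-9 RNAi libraries.

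**Figure D3:**
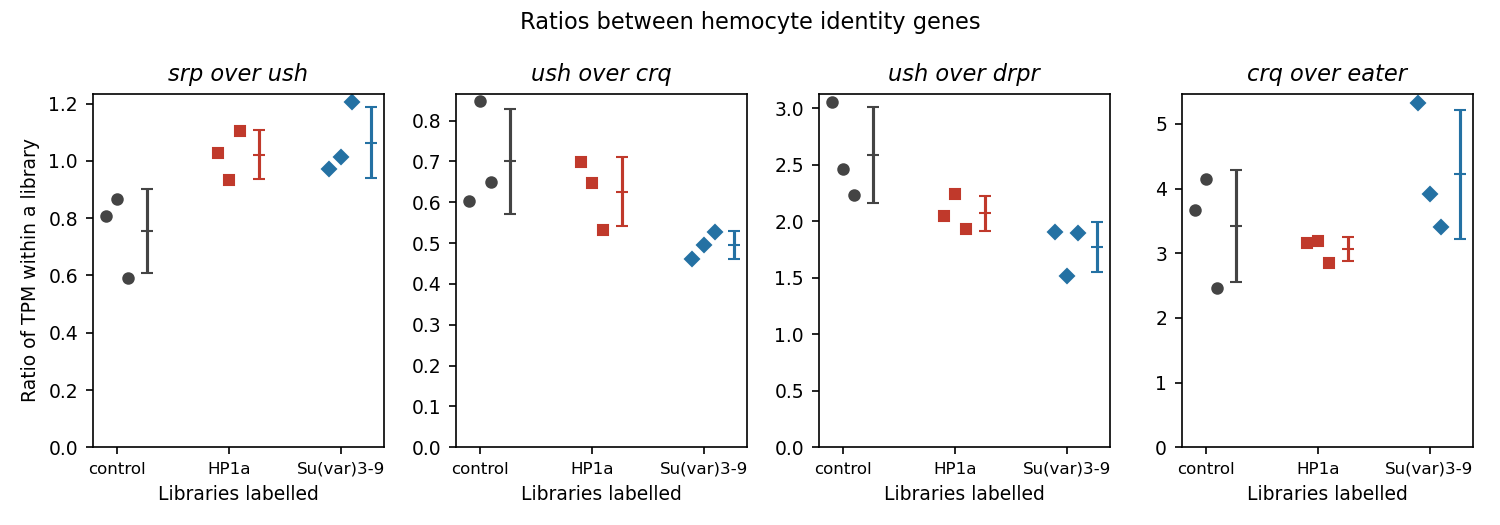
Ratios of TPM between pairs of hemocyte identity genes within each library (vertical axis, from 0), by label. Points are libraries and the bars beside them are the mean ± SD of 3 libraries. The srp to ush ratio lies between 0.591 and 0.868 in the control and between 0.934 and 1.20 in the other 6 libraries, and ush to crq is lowest in the Su(var)3-9 RNAi libraries.

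The transcript table showed which forms made up these levels. Of the 15 transcripts of the 10 genes, 7 averaged 1 TPM or more: 3 of srp and 1 each of ush, crq, drpr and eater. The 3 srp transcripts were all present. CG3992-RA was the most abundant srp form in 8 of the 9 libraries and made up 62.9% ± 3.52 of srp TPM in the control, 56.5% ± 9.04 in the HP1a RNAi libraries and 51.6% ± 18.9 in the Su(var)3-9 RNAi libraries (SD, n = 3 each).

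CG3992-RB varied most between replicates. It stood at 1.80, 0.81 and 0 TPM in the control, 1.32, 1.20 and 1.60 under HP1a RNAi, and 0.79, 0.45 and 4.44 under Su(var)3-9 RNAi. Control replicate 3, where it was listed at 0, had the lowest srp level of the control, and Su(var)3-9 RNAi replicate 3, where it made up 43.1% of srp TPM, had the highest srp level of all libraries. CG3992-RD, at 1.07 to 2.73 TPM, was steadier. In the Su(var)3-9 RNAi libraries CG3992-RB thus spread more widely than CG3992-RA, which stood at 2.52, 3.68 and 3.14 TPM. The split of a gene between its transcripts is an estimate of the quantification.

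**Figure D4:**
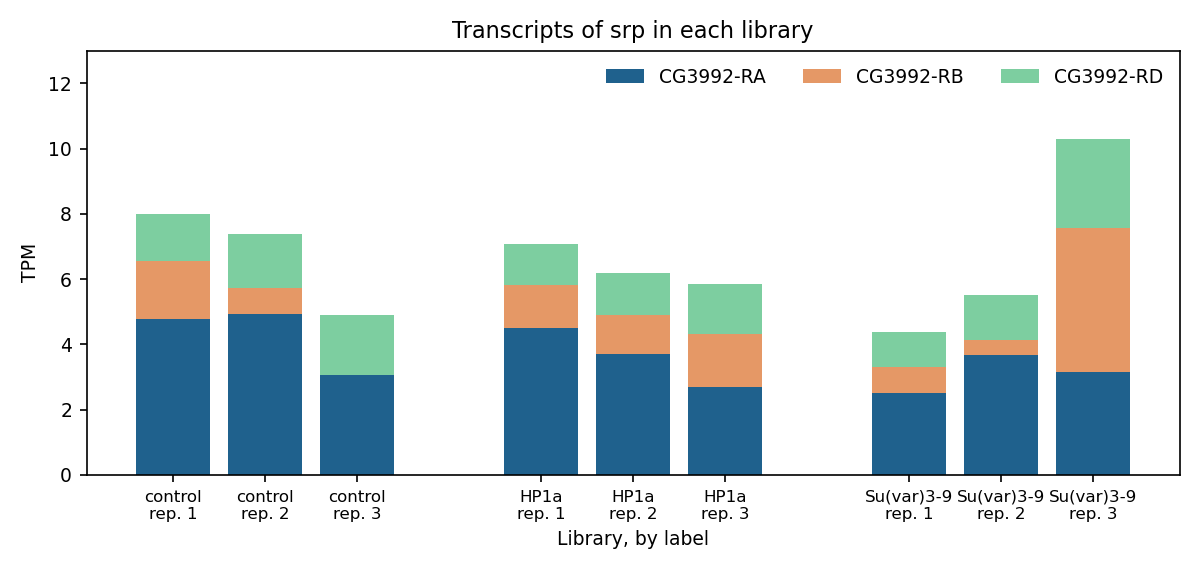
TPM of the 3 srp transcripts (stacked bars, vertical axis from 0) in each library. The total srp level runs from 4.38 to 10.3 TPM; CG3992-RB is listed at 0 in control replicate 3 and reaches 4.44 TPM in Su(var)3-9 RNAi replicate 3.

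The receptors were each read mainly as one form. crq came from CG4280-RA, apart from 1.04 TPM of CG4280-RB in control replicate 3. drpr came from CG2086-RB, at 91.1% to 100% of drpr TPM. The shorter form CG2086-RA was listed at 0 in all 3 control libraries and at 0.06 to 0.40 TPM in 2 HP1a RNAi and 2 Su(var)3-9 RNAi libraries. None of the 7 tested member transcripts was called in limma in either comparison with the control, where for HP1a and Su(var)3-9, respectively, 0.325% and 0.0779% of 7704 tested transcripts passed. At an unadjusted p under 0.05, only CG2762-RA, the single form of ush, passed with HP1a RNAi (-0.45, adjusted p = 0.243), and none with Su(var)3-9 RNAi. Of all tested transcripts, 17.4% and 6.52% did so, respectively. After size factors CG2762-RA was at -0.16 with HP1a RNAi (unadjusted p = 0.329 by limma) and no longer passed.

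Across the 9 libraries the 5 tested members did not share one profile. On log2(TPM + 1) after size factors, the correlation between members ran from -0.21 (drpr with eater) to 0.52 (srp with drpr), and srp with ush gave 0.48. These are descriptions over 9 libraries of 3 groups. The protein-coding genes whose profile was most like that of srp were AGO2 (r = 0.960), CG1951 (0.958) and sax (0.957). The nearest genes were CG10077 (0.969), CG9932 (0.957) and Su(Tpl) (0.952) for ush, and CG17715 (0.918), CG7800 (0.915) and CG5902 (0.910) for crq. For drpr they were CG3764 (0.921), GC1 (0.888) and kel (0.886), and for eater Aatf (0.880), SMC1 (0.876) and Xpc (0.873). Each was the highest among 6296 protein-coding genes, so high values were built into the choice.

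Other genes of the hemocyte programme placed the members in context. The 7 hemocyte lists held 70 gene models, and 41 of them averaged 1 TPM or more, beside 6296 of all 13470 protein-coding genes. Of 33 gene models on lists for fat body, neurons, glia, muscle, germline and epithelia or trachea, 5 did. The lists were not matched for how widely their genes are expressed, so these counts are a description only. All 9 fat body markers, Lsp2 and the yolk proteins among them, were under 1 TPM, as were the 5 neuronal markers. The exceptions were aub, a Piwi protein of the germline (6.61 TPM), the glial receptor moody (1.72), the muscle factor Mef2 (1.58) and the epithelial genes baz (1.54) and shg (1.21). Summed over the hemocyte lists, deposited TPM ran from 428.9 to 559.0 in the control, 352.4 to 374.0 under HP1a RNAi and 294.8 to 526.4 under Su(var)3-9 RNAi. The sums of the other lists were 16.9 to 19.4, 15.7 to 17.6 and 10.4 to 20.6 TPM, respectively. These sums cover 70 and 33 unmatched models and were not repeated after size factors. On deposited TPM, 31.5% of all tested genes had every HP1a RNAi library below every control library. After size factors, the 41 tested hemocyte-list genes had a median log2 fold change of -0.07 with HP1a RNAi. The median over all tested genes was then 0.004.

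Some hemocyte markers at higher levels stood beside members near 0. Of 16 other hemocyte transcription factors 9 were above 1 TPM, led by Stat92E (19.4 TPM), the GATA factor pnr (14.4) and CtBP (11.98), while gcm2, the paralog of gcm, was at 0.00667 TPM. Of 17 Nimrod and scavenger receptors only pes (13.2), NimC4 (5.46), Dscam1 (2.82) and Sr-CI (2.61) passed 1 TPM, and NimC4 is a receptor for apoptotic cells. Of the engulfment genes that act with drpr, 9 of 10 gene models passed 1 TPM, including Rac1 (15.9 TPM), the adaptor ced-6 (13.1) and Src42A (CG7873, 12.3). The model below 1 TPM was CG14471, also named Src42A, at 0.683 TPM. Of the 9 plasmatocyte markers 6 passed 1 TPM. Fer1HCH (66.9), Pvr (25.9) and Pxn (14.0) led them, He, Col4a1 and vkg were between 1.72 and 2.07 TPM, and Ppn (0.422), sn (0.194) and Fer2LCH (0.163) were below 1.

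Melanization genes were split, with 6 of 8 other genes above 1 TPM. PPO3 was at 2.71 TPM, PPO2 at 0.292 and the member PPO1 at 0.00889, whereas the protease MP1 (10.9), the serpin Spn27A (6.78) and yellow-f (6.30) were higher. Of the 6 lamellocyte markers 5 passed 1 TPM. Among them cher (46.8), mys (20.6) and msn (18.4) were high and are used in many cell types, and atilla was at 0.0211 TPM. The clotting list had 2 of 4 genes, Tig (7.12) and GILT1 (4.59), above 1 TPM, with fon at 0.0689.

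**Figure D5:**
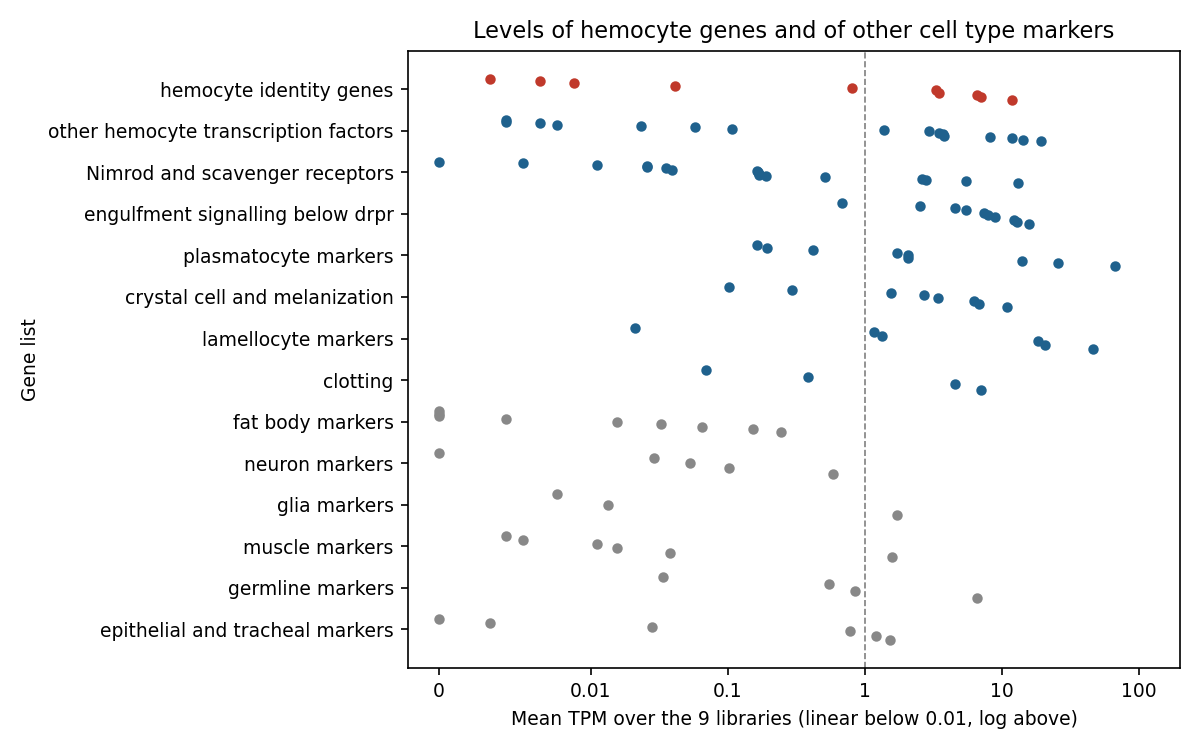
Mean TPM over the 9 libraries (horizontal axis, linear below 0.01 and logarithmic above) for each gene of the hemocyte identity genes (red), 7 other hemocyte lists (blue) and 6 lists for other cell types (grey). Each point is 1 gene and the dashed line marks 1 TPM, which 41 of 70 hemocyte-list models and 5 of 33 models of the other lists reached. Of all protein-coding genes, 6296 of 13470 reached it.

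Of the 41 tested hemocyte-list genes, 3 fell and 0 rose in limma with HP1a RNAi against the control, where 4.34% of all tested genes were called. At an unadjusted p under 0.05, 16 of the 41 and 24.0% of all tested genes passed. The median log2 fold change was -0.33, against -0.27 over all tested genes. The serpin Spn27A, which restrains melanization, fell by 1.34 on the log2 scale (SE 0.19, adjusted p = 0.00383) from 10.3, 7.56 and 12.7 to 3.65, 2.80 and 3.63 TPM, with no overlap. After size factors it fell by 1.05 (adjusted p = 0.0138). The clot protein Tig fell by 0.71 (SE 0.17, adjusted p = 0.0363) and the ferritin subunit Fer1HCH fell by 0.92 (SE 0.23, adjusted p = 0.0440). After size factors Fer1HCH fell by 0.59 (adjusted p = 0.04975), while the Tig difference was -0.42 (adjusted p = 0.271), short of the threshold.

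The Tig and Fer1HCH calls were lost without any one of control replicates 1 and 3 or any HP1a RNAi library, with adjusted p up to 0.195 and 0.215. Over all 25 alternatives, on both scales, the call was lost in 18 for Tig, 15 for Fer1HCH and 5 for Spn27A. The Spn27A call was kept without each library on deposited TPM, and after size factors it was lost without any one HP1a RNAi library (adjusted p up to 0.0891). Without control replicate 2, 19 of the 41 genes were called on deposited TPM, beside 42.1% of all tested genes. Of the other cell type lists, aub rose by 0.65 (SE 0.16, adjusted p = 0.0440), and by 0.94 after size factors (adjusted p = 0.0164). The aub call on deposited TPM was lost without control replicate 1 or 3 or any HP1a RNAi library (adjusted p up to 0.219). With Su(var)3-9 RNAi 0 of the 41 hemocyte-list genes were called in limma, against 0.167% of all tested genes, and 3 of the 41 had an unadjusted p under 0.05, against 7.55% of all tested genes. Without Su(var)3-9 RNAi replicate 3, 9 of the 41 and 11.0% of all tested genes were called.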

How the data were processed

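The study's methods state that total RNA reads were trimmed with Cutadapt, aligned to the dm3 genome with STAR and quantified with RSEM. The authors deposited TPM for genes and transcripts with 2 decimals in a column for each library. They also deposited tables of their own comparisons, which hold posterior probabilities and fold changes and were not used here. Depth is unknown from TPM. Whether counting used strand is not given in the sources used here, and the later BDGP6 annotation places other genes across srp, ush, gcm, crq, drpr and PPO1, so overlapping reads could be split. No coordinates or sequences are given.

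Gene names came from a RefSeq table (13783 of 15168 identifiers by locus tag, 749 by synonym). Groups came from the labels. Features averaging 1 TPM or more were fitted as log2(TPM + 1), for the 6 libraries of each comparison, by limma 3.58.1 under R 4.3.3 (trend, two-sided, no covariates), with Benjamini-Hochberg adjustment over all features and a threshold of 0.05. Size factors were median ratios over 6447 genes above 0 in every library. The fits were tested on simulated data with noise drawn separately for each gene. Those data held no shift shared by a whole library, so they cannot show how calls behave under one. With 3 against 3 libraries an exact permutation test cannot go below p = 0.1, so none was used. Tables and figures were made with matplotlib 3.10.9, numpy 2.4.6 and pandas 2.3.3 in Python 3.11.15.

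Named were all members, their transcripts, the targets, list genes called or among the 3 highest of their list, and the 3 genes most correlated with each tested member. gcm2, PPO2, PPO3, atilla, fon, Sr-CI, Lsp2, He, Col4a1, vkg, Ppn, sn, Fer2LCH, zfh1, the Src42A model CG14471 and ND-B8 were named after their values were seen. Of 112 list symbols 111 matched. The members and lists were chosen with earlier results of these data known.

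Alternatives were no filter on low values, a minimum mean of 5 TPM, 0.1 as pseudocount, size factors, small noncoding genes left out before rescaling, quantile normalization, a joint fit of all 9 libraries, a block for replicate number with and without size factors, array weights, and leaving out each library. A minimum mean of 0.5 TPM was chosen after seeing the data.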

Additional observations from a re-analysis of the deposited data

How the results depend on the processing

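No member was called in any comparison except under array weights, with 2 genes (crq, ush) for HP1a RNAi and 3 (crq, eater, ush) for Su(var)3-9 RNAi against control and 1 transcript (CG2762-RA) in the latter, where array weights called 28.6% and 62.4% of all tested genes and 26.4% of transcripts, and without single libraries, where 0 to 3 genes were called for HP1a RNAi. Hml, in the fit with a lower minimum mean, was called for HP1a RNAi only without control replicate 2. Calls on the hemocyte lists for HP1a RNAi numbered 0 without a filter, 1 with quantile normalization and 1 with all 9 libraries. The shares of all tested genes were 0.22%, 0.715% and 0.532%, respectively. List calls for HP1a RNAi numbered 13 of 41 with array weights and 0 to 19 without single libraries. For Su(var)3-9 RNAi they numbered 29 of 41 with array weights and 0 to 9 without single libraries. Leaving out single libraries, on either scale, called 0.167% to 42.1% of all tested genes for HP1a RNAi. For Su(var)3-9 RNAi it called 0.0152% to 11.0%. The causes were not tested.

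With the replicate block, 9 hemocyte-list genes were called for HP1a RNAi, beside 9.2% of all tested genes. With the replicate block with size factors 0 were, beside 0.152%. The replicate block called 1 (zfh1) for Su(var)3-9 RNAi, beside 1.64% of all tested genes, and changed no member's call. On deposited TPM, same-numbered libraries deviated from their group means with correlations of -0.45 to 0.12. Differently numbered libraries were not compared, so these values cannot decide whether the numbers pair the samples.

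Changes of members short of the threshold switched sign with scaling. For HP1a RNAi against control, size factors (with and without the block, and at a minimum mean of 0.5 TPM), rescaling and quantile normalization gave 0.23, 0.28 and 0.22 for srp, 0.10, 0.14 and 0.10 for drpr, and 0.074, 0.12 and 0.078 for eater. crq was 0.029 after rescaling and 0.00028 after quantile normalization. For Su(var)3-9 RNAi against control the same scalings gave 0.17, 0.16 and 0.19 for srp, 0.17, 0.16 and 0.22 for crq, and 0.18, 0.17 and 0.22 for drpr, which was 0.052 with array weights.

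Without single libraries, on either scale, HP1a RNAi against control gave -0.24 to 0.42 for srp, -0.49 to 0.077 for crq, -0.21 to 0.21 for drpr and -0.45 to 0.19 for eater. Su(var)3-9 RNAi against control gave -0.37 to 0.36 for srp, -0.29 to 0.27 for crq, -0.19 to 0.29 for drpr, -0.57 to 0.043 for eater and -0.41 to 0.023 for Hml. HP1a RNAi against Su(var)3-9 RNAi gave -0.22 to 0.32 for srp, -0.12 to 0.28 for ush, -0.32 to 0.033 for drpr and -0.13 to 0.38 for eater. ush, over all alternatives, stayed negative in both comparisons with the control.

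Of 669 alternative values for 29 results, 91 switched sign, 51 lost a call, 9 gained one and 23 counts moved by more than 1.5 times. TPM hold no depth, so levels of Hml, NimC1, PPO1, gcm and lz carry no counting error and small differences among them cannot be judged.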
